A study of Bos taurus with 8 samples.

Results

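Wnt signalling in bovine Müller glia was followed through 10 genes over 8 arrays: the ligands WNT2B and WNT5A, the receptors FZD1 and FZD7, the co-receptors LRP5 and LRP6, the secreted inhibitors SFRP1, SFRP4 and DKK3, and the target gene AXIN2. They were picked by gene name, as 10 of the 17278 named genes that have a probe on the array, with earlier results of the same protein comparisons known. Their protein-against-control values are therefore given as a description and carry no test. The cells, labelled as primary Müller glia from bovine eyes and called astrocytes in the extraction text, were grown for 18 to 21 days and then kept for 24 h with the HIV-1 transactivator protein TAT at 100 ng/ml (3 arrays, letters A, B and C), with the HIV-1 envelope protein gp120 at 60 ng/ml (3 arrays, letters A, B and C), or as control (2 arrays, letters A and B). The treatment text is the same for every sample and names both proteins, so the groups rest on the sample titles. Whether the letters mark separate cultures or animals is not stated, and any p-value below measures only the spread between these samples, which may be technical.

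Wnt proteins are secreted lipid-modified ligands that bind a Frizzled receptor together with LRP5 or LRP6 at the cell surface. In the β-catenin branch this stalls the destruction complex, which is built on Axin, and β-catenin then joins TCF and LEF factors at target genes such as AXIN2, itself a feedback inhibitor. SFRP proteins bind the ligands outside the cell, and most DKK proteins bind LRP5 and LRP6, DKK3 being the divergent member of that family. In the mouse and zebrafish retina, β-catenin signalling has been linked to proliferation of Müller glia after injury.

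The 10 genes had 27 probes. Of these, 17 were kept because the scanner software, Feature Extraction, rated them well above background throughout 1 or more of the groups, 12 were well above background on all 8 arrays, and 7 on none. WNT5A and AXIN2 had no kept probe, so 8 genes entered the fit over all 12230 genes, each by its brightest kept probe. Values are log2 signals minus the array's 75th percentile, so 0 is a fairly bright probe of that array, and a difference of 1 is a doubling. Levels of different probes or genes cannot be set against each other on this scale. The array files give each probe by its position in the HGSC Btau_3.1 build and in a transcript, without exon or UTR labels.

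Probes of LRP5, LRP6 and FZD7 gave unlike values for 1 gene, so probes of these genes are shown, 5′ to 3′, together with that of WNT2B, the gene among the 10 that passed the test between letters below. The 2 kept LRP5 probes overlap, at chr29:47740965-47741024 and chr29:47740973-47741032 (plus strand). They are offset by 8 bases and share 52 of 60. The first 30 bases of each are printed, with capitals for the bases that the other probe also holds. The first LRP6 probe spans 4105 bases of the genome (chr5:104869940-104874044, plus strand) and so crosses at least 1 intron, and the other lies at chr5:104874751-104874810 (plus strand, first 30 bases). The FZD7 probe lies at chr2:95160565-95160624 (plus strand) and the WNT2B probe at chr3:33314345-33314404 (minus strand, first 30 bases).
LRP5 A_73_P061686: gggtgggcAGGACAGGGAAAAACTTTGTAC
LRP5 A_73_101893: AGGACAGGGAAAAACTTTGTACAATGGAGA
LRP6 A_73_P091341: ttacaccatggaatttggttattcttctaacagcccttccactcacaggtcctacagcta
LRP6 A_73_117043: aagtccatctcagcagcaaaccatatatac
FZD7 A_73_P030151: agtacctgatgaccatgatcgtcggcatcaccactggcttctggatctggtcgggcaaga
WNT2B A_73_108402: ctgggattgctagatatgagttagcatagt

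Between 55.46% and 64.62% of the spots of each array were well above background. Arrays grouped more by letter than by protein: the first principal component, with 50.8% of the variance, put the 3 letter A arrays on 1 side and the other 5 arrays on the other. All 8 arrays were on 1 slide; row 1 held TAT A, gp120 A and both controls, and gp120 B and gp120 C were scanned separately from the other 6 arrays. Of the Müller glia markers, 11 of 12 had a probe and 6 of these (GLUL, SLC1A3, VIM, AQP4, CA2 and CRYM) were well above background on all 8 arrays, whereas SOX2 was so on 4 arrays, RLBP1 and GFAP on 2 each, KCNJ10 on 1 and RGR on 0. Markers of other cells were also well above background on all 8 arrays: 9 of 10 for fibroblasts and stroma, 6 of 6 for pericytes and smooth muscle, and 7 of 8 for microglia and macrophages. The labelled cell type was thus seen through some of its markers only, beside markers of other cells. In bulk RNA, fewer cells of a type and less RNA per cell cannot be told apart.

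In cells given TAT, the 8 measured genes had log2 differences from control of 0.04 to 1.49, all of them above 0 (as were 43.8% of all genes tested), with a median of 0.56 against -0.04 over all genes. The ligand WNT2B, the inhibitors SFRP4, SFRP1 and DKK3 and the co-receptor LRP5 had the largest values, and LRP6 stood at 0.04. In cells given gp120 the same genes ranged from -0.74 for LRP6 to 1.90 for WNT2B, with 5 of 8 above 0 (46.3% of all genes) and a median of 0.28 against -0.03 over all genes. Both comparisons use the same 2 control arrays. limma called 0 of the 12230 genes at an adjusted p of 0.05 in either comparison (0.0%), none of the 8 among them, although 160 genes with TAT and 323 with gp120 had an unadjusted p below 0.05. A block for the letters left the adjusted counts at 0.

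**Figure D1:**
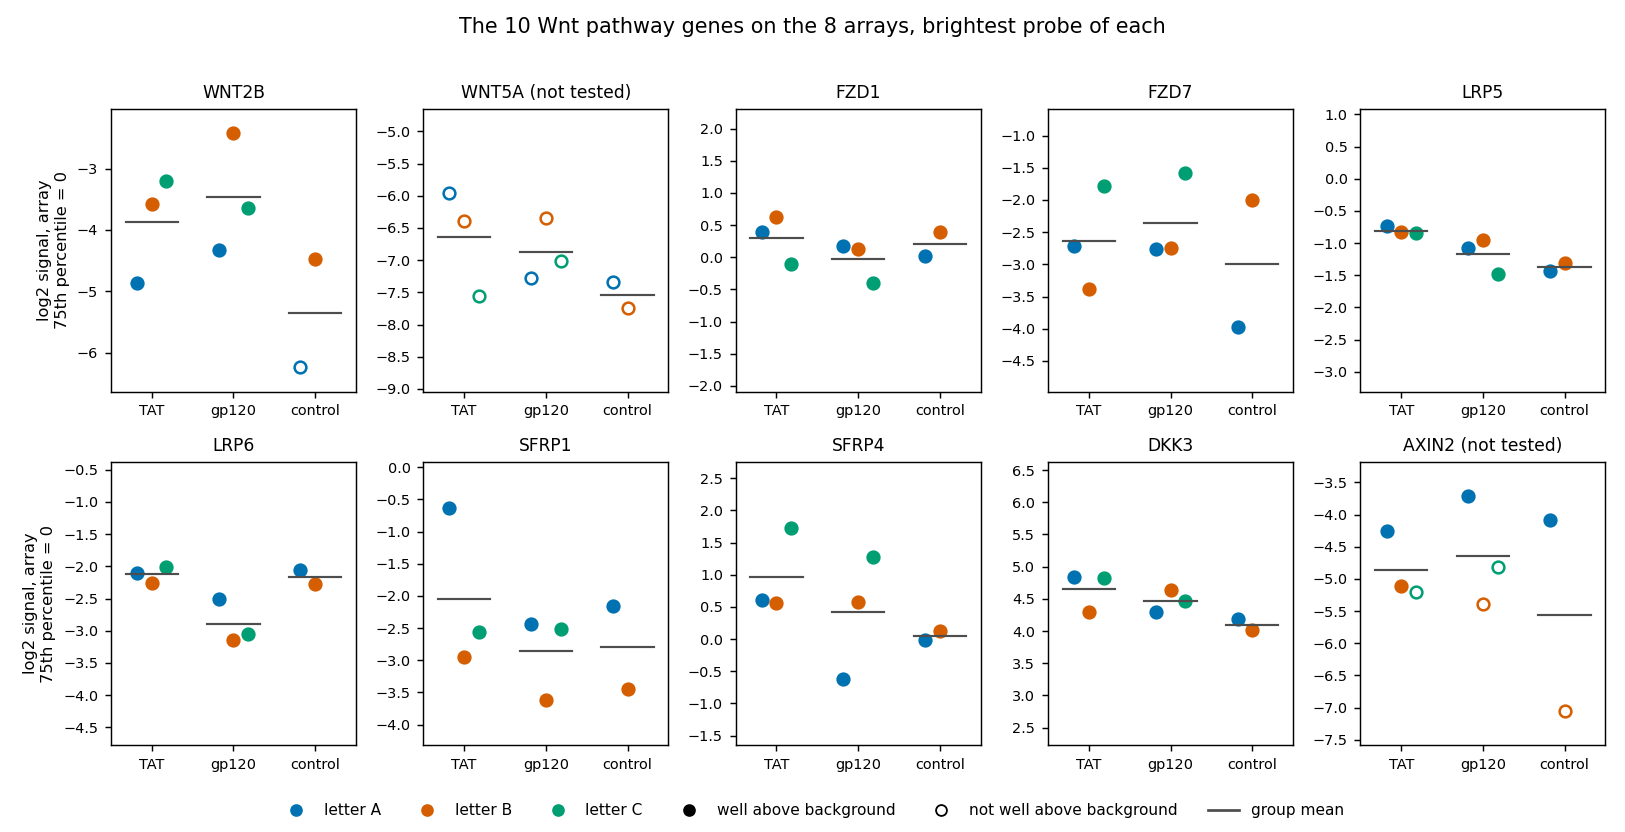
Log2 signal of the brightest probe of each gene (y axis, array 75th percentile = 0) in the TAT, gp120 and control groups (x axis). Points are arrays coloured by letter, open where the probe was not well above background, and bars are group means. The LRP5 and DKK3 points of TAT lie above both controls, the LRP6 points of gp120 lie below all other arrays, and WNT5A has open points only.

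Among the ligands, WNT2B was measured by 1 kept probe. Its signal was -4.86, -3.57 and -3.20 on the TAT arrays A, B and C, -4.32, -2.42 and -3.64 on the gp120 arrays A, B and C, and -6.24 and -4.48 on control A and B. TAT A lay below control B, so TAT and control overlap, while every gp120 array lay above both controls. Control A was not well above background, so the control mean rests in part on a reading near background. The probe thus passed the filter only through the TAT and gp120 groups, where it read higher. The fitted difference was 1.49 (SE 0.75) for TAT minus control and 1.90 (SE 0.75) for gp120 minus control. Within the same letter, TAT was above control by 1.38 in A and 0.91 in B, and gp120 by 1.92 in A and 2.06 in B. The size depends on which control is used: without control A the differences were 0.61 for TAT and 1.02 for gp120, and without control B 2.37 and 2.78. After the normexp background correction, whose offset of 50 compresses dim probes, they were 0.03 and 0.20.

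WNT5A, a ligand known mainly for signalling without β-catenin, was not well above background on any array. Its single probe, on chromosome 22, read -5.95, -6.39 and -7.56 with TAT, -7.27, -6.35 and -7.01 with gp120, and -7.34 and -7.74 in control, and no fold is given for it. Most Wnt ligands shared this state: of the 18 on the wider list that had a probe, 12 were not well above background on any array with any probe. NDP, which encodes Norrin, a ligand of FZD4, and WNT10B were well above background on all 8 arrays, and with WNT2B they were the 3 ligands that could be tested.

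The Frizzled receptors differed little or without a common direction. FZD1 read 0.39, 0.62 and -0.11 on the TAT arrays, 0.18, 0.13 and -0.40 on the gp120 arrays, and 0.02 and 0.39 in control, so all groups overlap. Its difference was 0.10 (SE 0.30) for TAT and -0.23 (SE 0.30) for gp120, and these became 0.30 and -0.04 in the blocked fit, which takes the letters into account. In the same-letter pairs TAT was above gp120 by 0.22, 0.50 and 0.30 in A, B and C. The other kept FZD1 probes gave 0.14 and -0.31 for TAT minus control, and 0.35 and -0.24 for gp120 minus control.

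FZD7 had 3 kept probes whose differences did not share a sign. The brightest, shown above, read -2.71, -3.39 and -1.79 with TAT, -2.76, -2.74 and -1.58 with gp120, and -3.98 and -2.00 in control. Its 2 controls lay further apart than the arrays of either protein group, and the groups overlap. The TAT pair difference was 1.27 in letter A and -1.39 in letter B, and that of gp120 was 1.22 and -0.74. The fitted 0.36 (SE 0.70) for TAT thus sums opposite pairs, and it was -0.04 with a block for the letters, against -0.63 if control A was left out and 1.35 if control B was. For gp120 minus control, 0.63 (SE 0.70), these were -0.36 and 1.62. The other FZD7 probes gave 0.30 and -0.10 for TAT, and 0.74 and -0.02 for gp120. The probe with 0.30 and 0.74 was not well above background on control A and gp120 C. That probe passed the filter only through TAT, and its control mean rests in part on a reading near background.

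LRP5, the co-receptor that also serves Norrin, had the smallest range over the 8 arrays of the 8 tested genes. Its brighter probe read -0.74, -0.83 and -0.85 with TAT, -1.07, -0.95 and -1.48 with gp120, and -1.43 and -1.31 in control. All 3 TAT arrays lay above all gp120 and control arrays, whereas gp120 overlapped control. The difference was 0.57 (SE 0.22), or 1.48-fold, for TAT minus control, 0.21 (SE 0.22) for gp120 minus control, and 0.36 (SE 0.20) for TAT minus gp120. Within letters, TAT stood above control by 0.70 in A and 0.48 in B, and above gp120 by 0.33, 0.13 and 0.62 in A, B and C. Leaving out any 1 array gave 0.50 to 0.63 for TAT minus control, and the normexp correction gave 0.27.

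The overlapping LRP5 probe, 8 bases downstream, read -3.04, -3.51 and -4.80 with TAT, -4.43, -4.12 and -4.71 with gp120, and -3.73 and -5.28 in control. Its difference for TAT minus control, 0.72 (SE 0.60), had the same sign as that of the brighter probe, but here the arrays of TAT and control overlap. gp120 C was not well above background for this probe. The remaining 3 LRP5 probes, which the files place further upstream in the transcript, were below the filter, with 0, 0 and 3 arrays well above background. In the deposited value table LRP5 stood at 0.56 for TAT minus control and 0.93 for gp120 minus control, so TAT minus gp120 turned to -0.37 there.

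LRP6, the close relative of LRP5, had of the 8 genes the largest TAT minus gp120 difference relative to its error. Its brightest probe read -2.11, -2.26 and -2.01 with TAT, -2.51, -3.15 and -3.05 with gp120, and -2.06 and -2.28 in control. TAT and control were interleaved, and all 3 gp120 arrays lay below the other 5. The difference was 0.04 (SE 0.25) for TAT minus control, -0.74 (SE 0.25), or 0.60-fold, for gp120 minus control, and 0.78 (SE 0.23) for TAT minus gp120. In the same-letter pairs gp120 was below control by -0.45 in A and -0.88 in B, and TAT was above gp120 by 0.40, 0.89 and 1.05.

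The lowest LRP6 arrays, gp120 B and gp120 C, are also the pair that was scanned separately. With scan as a block the gp120 value became -0.34 and TAT minus gp120 0.39, which is the value of gp120 A alone against the arrays of its own scan. gp120 A itself lay below both controls. The junction probe of LRP6 read -3.46, -4.23 and -4.60 with TAT, -3.38, -4.22 and -3.98 with gp120, and -2.81 and -4.11 in control. It gave -0.64 (SE 0.49) for TAT, -0.40 (SE 0.49) for gp120 and -0.24 (SE 0.44) for TAT minus gp120, so the separation of gp120 from TAT seen with the brightest probe was not seen with this one. The median over both probes put TAT minus gp120 at 0.27. After the normexp correction the brightest probe gave -0.22 for gp120 minus control and 0.24 for TAT minus gp120.

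**Figure D2:**
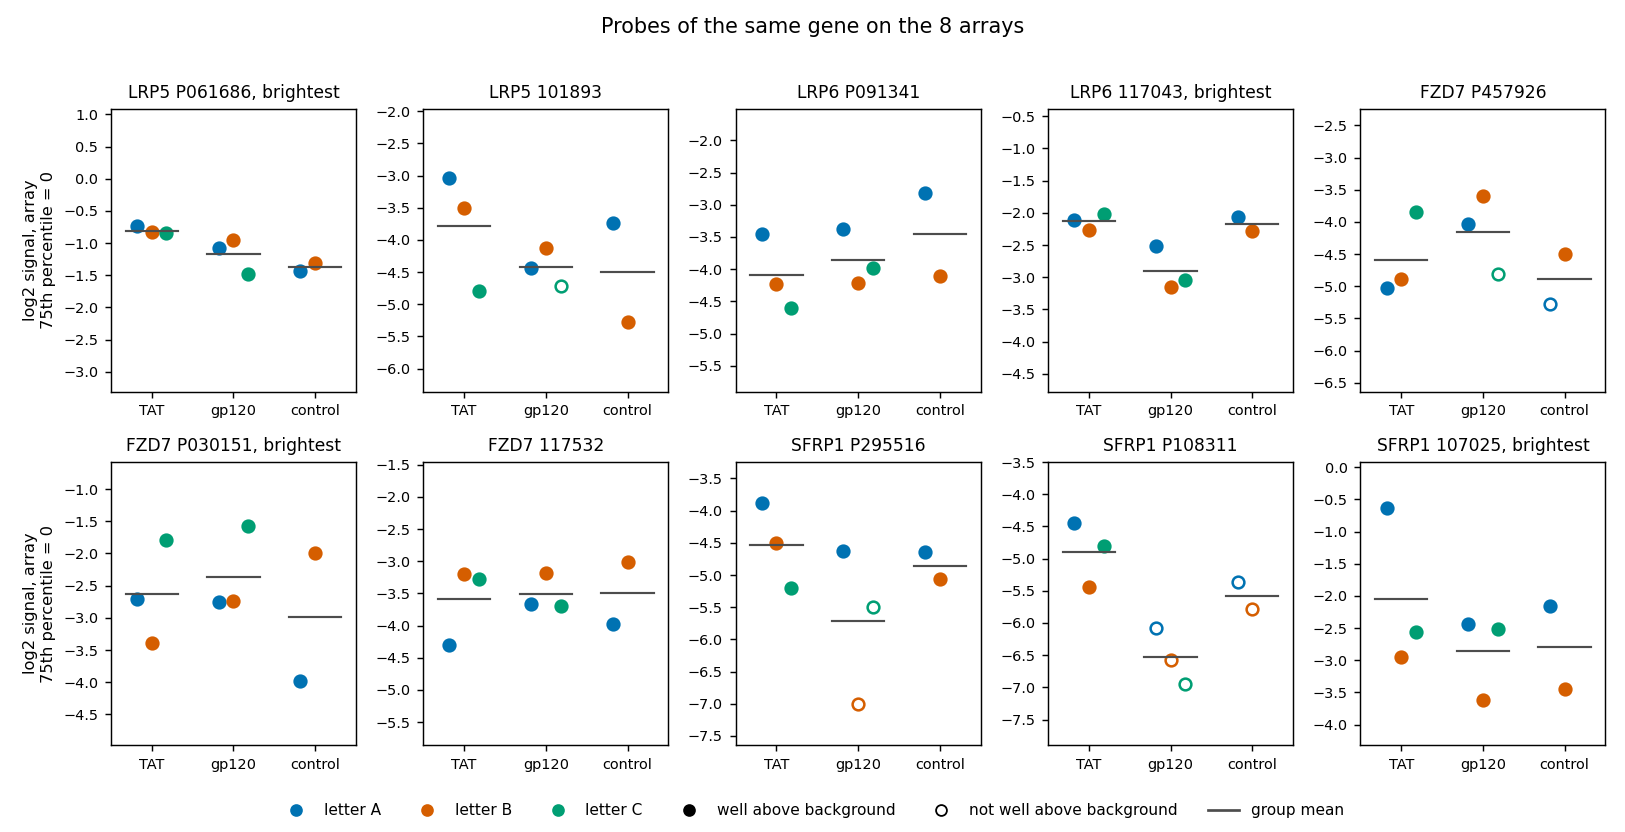
Log2 signal (y axis, array 75th percentile = 0; each panel has its own scale) of every kept probe of LRP5, LRP6, FZD7 and SFRP1 by group (x axis). Points are arrays coloured by letter, open where not well above background, and bars are group means. The gp120 points lie lowest for LRP6 A_73_117043 but not for LRP6 A_73_P091341, and SFRP1 A_73_P108311 has filled points with TAT only.

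Of the secreted inhibitors, SFRP1 had 3 kept probes. The brightest read -0.63, -2.95 and -2.56 with TAT, -2.44, -3.61 and -2.51 with gp120, and -2.15 and -3.45 in control. TAT A stood alone, 1.52 above control A, and the other arrays overlap; TAT B was 0.50 above control B. The difference was 0.75 (SE 0.74) for TAT minus control, which fell to 0.05 without TAT A and to 0.11 without control B, and was 1.40 without control A. For gp120 minus control it was -0.06 (SE 0.74).

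A dimmer SFRP1 probe, A_73_P108311, was well above background on all 3 TAT arrays and on none of the gp120 or control arrays. It read -4.45, -5.44 and -4.80 with TAT, -6.08, -6.57 and -6.95 with gp120, and -5.37 and -5.79 in control, so TAT B and control A overlap. With a floor for the dim readings of each array, TAT read 2.12-fold higher than gp120. Each gp120 array counted at its own reading, or at the faintest reading of any probe that passed as well above background there if higher. Readings of this probe that did not pass can lie above that floor, as they did in control. The 2.12-fold is therefore not a strict bound. The spread between arrays is left out. The control mean was -5.58 either way, so the 1.60-fold of TAT over control is a plain difference of means and not a bound. The probe passed the filter only through TAT, and the files place just 21 of its bases in the genome build. The remaining SFRP1 probe gave 0.32 (SE 0.67) for TAT minus control and -0.86 (SE 0.67) for gp120 minus control. It was well above background on all TAT and control arrays but on only 1 of 3 gp120 arrays. This probe thus passed the filter only through TAT and control, where it read higher. Its gp120 mean rests in part on readings near background.

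SFRP4 had 2 probes well above background on all 8 arrays. The brighter read 0.60, 0.56 and 1.72 with TAT, -0.62, 0.58 and 1.28 with gp120, and -0.02 and 0.13 in control. Every TAT array lay above both controls, while gp120 had arrays on both sides of them. The difference was 0.90 (SE 0.57) for TAT and 0.35 (SE 0.57) for gp120. Much of it came from letter C, which has no control: with the letters as a block the values were 0.49 and -0.06, and without TAT C the TAT value was 0.52. The other probe read -2.43, -2.09 and -1.49 with TAT, -3.78, -2.49 and -2.02 with gp120, and -2.93 and -2.91 in control. Its TAT arrays again lay above both controls and its gp120 arrays on both sides, with 0.91 (SE 0.51) for TAT and 0.15 (SE 0.51) for gp120.

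DKK3 had 1 probe, at chr15:39669149-39669208 (plus strand). It read 4.84, 4.30 and 4.82 with TAT, 4.29, 4.63 and 4.46 with gp120, and 4.19 and 4.01 in control. All 6 arrays of treated cells lay above both controls, and TAT overlapped gp120. The difference was 0.56 (SE 0.25) for TAT minus control, 0.36 (SE 0.25) for gp120 minus control and 0.20 (SE 0.22) for TAT minus gp120. The same-letter differences were 0.65 and 0.30 for TAT and 0.10 and 0.62 for gp120, in A and B. With the letters and the scan as blocks together the gp120 value was 0.05.

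AXIN2, read here as a target gene, lies on an unplaced scaffold of the build and had no kept probe. The brighter of its 2 probes read -4.25, -5.11 and -5.21 with TAT, -3.72, -5.39 and -4.82 with gp120, and -4.08 and -7.05 in control. It was well above background on 2 of 3 TAT arrays, 1 of 3 gp120 arrays and 1 of 2 control arrays, namely on all 3 letter A arrays and TAT B. The other probe was not well above background on any array, so no protein difference can be read for AXIN2.

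**Figure D3:**
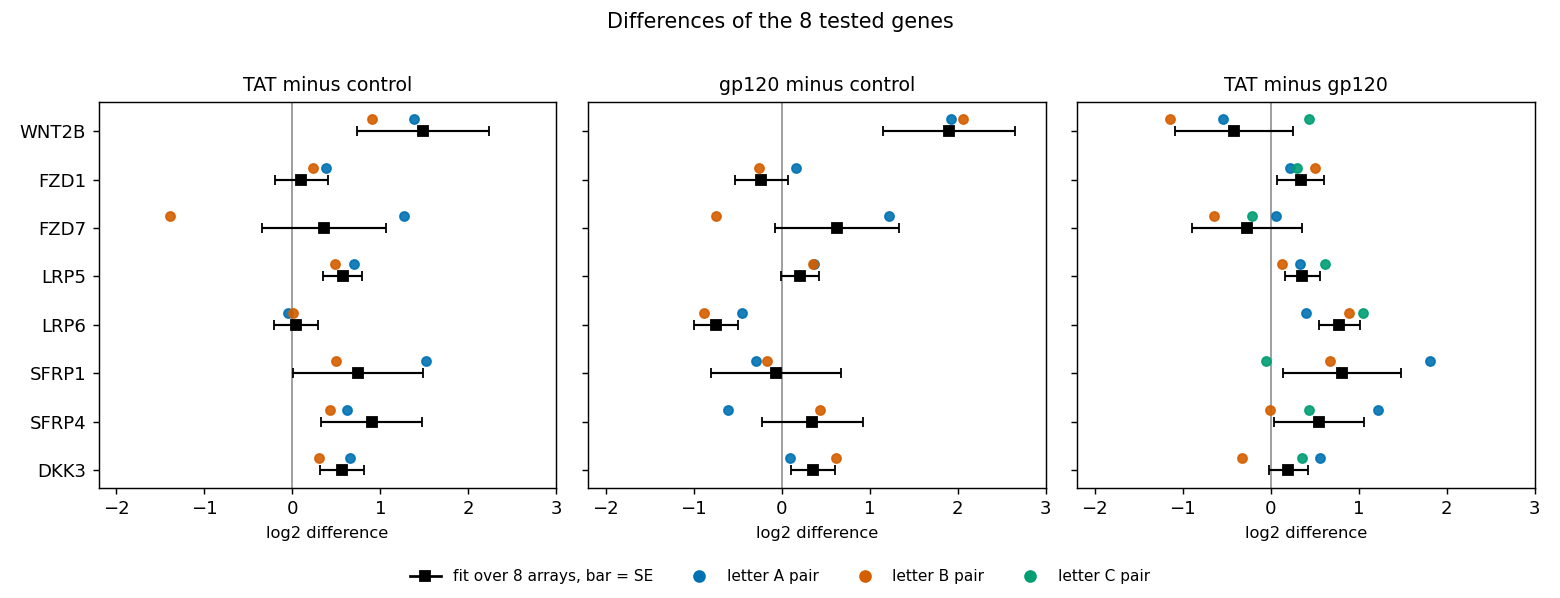
Log2 difference (x axis) of the 8 tested genes (y axis) for TAT minus control, gp120 minus control and TAT minus gp120. Squares with bars are the fit over 8 arrays with its SE, and circles are same-letter pairs, which exist for A and B against control and for A, B and C between the proteins. LRP5, DKK3, SFRP1, SFRP4, WNT2B and FZD1 have both TAT pairs above 0, LRP6 has both gp120 pairs below 0, and the FZD7 pairs fall on opposite sides.

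Counted over genes, 3 of the 8 (LRP5, SFRP4 and DKK3) had all TAT arrays above both controls, against 4.51% of all genes tested, and 0 had all TAT arrays below, against 9.71%. With gp120, 2 (WNT2B and DKK3) had all arrays above both controls, against 4.95% of all genes, and 1 (LRP6) had all below, against 8.37%. Between the proteins, 2 (LRP5 and LRP6) had all TAT arrays above all gp120 arrays, against 3.21% of all genes, and 0 had all below, against 3.39%. By same-letter pairs, 6 of 8 were higher with TAT than control in both letters, against 17.9% of all genes. With gp120, 3 were higher than control in both letters, against 18.5%, and 2 (LRP6 and SFRP1) were lower in both, against 28.9%. TAT was above gp120 in all 3 letters for 3 genes (LRP6, LRP5 and FZD1), against 14.1%, and the fitted TAT minus gp120 difference was above 0 for 6, against 47.4%. Since earlier results of these comparisons were used to choose the genes, nothing is read from these counts. For TAT minus gp120 limma again called 0 of 12230 genes (0.0%), with 303 at an unadjusted p under 0.05.

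Batches could be set apart in part. In row 1 of the slide, where TAT A and gp120 A lay beside both controls, TAT A was above the control mean by 0.64 for LRP5, 0.75 for DKK3, 0.54 for SFRP4, 0.50 for WNT2B and 2.17 for SFRP1. gp120 A was 1.04 above the control mean for WNT2B and stood at -0.34 for LRP6, 0.19 for DKK3 and -0.68 for SFRP4. With slide row as a block, TAT minus control was 0.65 for LRP5 and 0.56 for DKK3, near the values without it, but 0.20 for SFRP4, 0.56 for WNT2B and 1.67 for SFRP1. For gp120 minus control it was 0.98 for WNT2B, -0.53 for LRP6, 0.37 for DKK3 and -0.35 for SFRP4. For SFRP4 the sign is thus opposite to the 0.35 of the fit without blocks, which was 0.87 without gp120 A and -0.08 without gp120 C. Each protein has 1 array in row 1, so these values rest on single arrays.

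The sum of the fibroblast and stromal markers, which is carried by the brightest of them, was higher on the TAT arrays too. Gene by gene, COL1A1, COL1A2, LUM, PRRX1 and THY1 had all TAT arrays above both controls, as had 4.51% of all genes tested. COL3A1, DCN, PDGFRA, TWIST1 and FAP overlapped control. Their 10 genes summed to 183 to 255 times the array's 75th percentile on the TAT arrays, 133 to 170 on the gp120 arrays and 138 to 140 in control, and 9 of the 10 (all but PDGFRA) were well above background on all arrays. The part of these markers, and of the macrophage markers given next, in the values of LRP5, SFRP4, SFRP1 and DKK3 was not tested. The microglia and macrophage sum was 173 to 201 with TAT, 144 to 212 with gp120 and 202 to 227 in control. All TAT sums lay below control, TAT B only just (201 against 202 in control B). By gene, TYROBP and P2RY12 had all TAT arrays below both controls, as had 9.71% of all genes tested. CX3CR1 had all TAT arrays above both controls, and the other genes of this list overlapped control. For the other lists the sums of both proteins overlapped control, while some of their genes did not. Of their genes well above background on all 8 arrays, AQP4 and CA2 had all gp120 arrays below both controls, as had 8.37% of all genes tested. PECAM1 had all TAT and all gp120 arrays above both controls (4.51% and 4.95% of all genes). CLDN5 had all TAT arrays below both (9.71% of all genes), and the rest of these genes overlapped control. For TAT, gp120 and control the sums were 184 to 208, 197 to 237 and 177 to 249 for Müller glia, and 159 to 259, 121 to 290 and 92.4 to 187 for pericytes and smooth muscle. The endothelial sum was 2.19 to 4.32, 3.1 to 4.04 and 3.63 to 4.32, with CDH5 not well above background on any array. The retinal pigment epithelium sum was 1.0 to 1.4, 0.615 to 1.51 and 1.14 to 1.34, with TYR not well above background on any array, and the retinal neuron sum was 2.02 to 4.82, 1.19 to 3.37 and 1.55 to 4.36.

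The wider pathway was read from a list of 106 Wnt genes grouped by role, of which 102 had a probe and 66 were tested. None of the 66 passed an adjusted p of 0.05 in any protein comparison in limma, in either direction. With TAT 38 of 66 were above 0, with a median difference of 0.08, and with gp120 33 of 66, with a median of 0.00. Over all genes tested 43.8% were above 0 with TAT and 46.3% with gp120. The list includes the 8 tested genes described above, which were chosen with earlier results of these comparisons known. All 8 were above 0 with TAT. They are inside the counts and medians given here and by role, so nothing is read from these values. By role, the secreted inhibitors had 6 of 8 above 0 with TAT (median 0.44) and 2 of 8 with gp120 (median -0.03). The inhibitors include the chosen genes SFRP1, SFRP4 and DKK3, each of them above 0 with TAT. The Frizzled receptors had 7 of 8 above 0 with TAT (median 0.22) and 5 of 8 with gp120 (median 0.18). In the cytoplasmic relay and destruction complex, 8 of 14 were above 0 with TAT (median 0.05) and 7 of 14 with gp120 (median -0.03). The counts above 0 with TAT and with gp120 were 2 and 3 of 3 ligands, 1 and 2 of 2 ligand secretion genes, 4 and 4 of 6 co-receptors, 2 and 3 of 5 genes of the R-spondin axis, 5 and 5 of 11 nuclear factors, 2 and 1 of 4 target genes, and 1 and 1 of 5 genes of the planar polarity arm.

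Of the list genes above 0 with TAT, LRP5, DKK3 and DKK2 had the smallest unadjusted p. DKK2, a secreted LRP-binding protein, averaged 2.92 with TAT, 2.42 with gp120 and 2.43 in control, a difference of 0.49 (SE 0.23) from control with TAT. On the lower side with TAT stood RSPO1, GSK3A and TSPAN12. RSPO1, which encodes an R-spondin that strengthens Wnt signals, averaged -5.26 with TAT and -3.80 in control, a difference of -1.47 (SE 0.54), with -0.72 in pair A and -1.70 in pair B. It was not well above background on TAT C and gp120 C, so that TAT mean rests in part on a reading near background. RSPO1 thus passed the filter only through the control group, where it read highest. The kinase gene GSK3A, of the destruction complex, stood at -0.29 (SE 0.20). The Norrin co-receptor gene TSPAN12 stood at -1.0 (SE 0.76), and at -0.44 (SE 0.31) with the letters as a block.

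With gp120, the genes above 0 with the smallest unadjusted p were AXIN1, WNT2B and CTNNB1. AXIN1, the scaffold of the destruction complex, read -1.32, -1.97 and -1.78 with TAT, -1.17, -0.78 and -0.99 with gp120, and -1.81 and -1.66 in control, with 0.75 (SE 0.26) for gp120 minus control. CTNNB1, the gene of β-catenin, read 5.14, 4.69 and 4.78 with TAT, 4.94, 5.22 and 4.61 with gp120, and 4.49 and 4.17 in control. Its difference from control was 0.54 (SE 0.26) with TAT and 0.59 (SE 0.26) with gp120. All gp120 arrays lay above both controls for AXIN1 and CTNNB1, as for 4.95% of all genes tested. For CTNNB1 so did all TAT arrays, as for 4.51% of all genes. Both genes were named for their small p in the gp120 comparison, so nothing is read from this separation. Below 0 stood LRP6, TCF7L2 and CSNK1A1. TCF7L2, a DNA-binding partner of β-catenin, read 0.22, -0.98 and -0.57 with gp120 and 0.83 and 0.22 in control, a difference of -0.97 (SE 0.40). CSNK1A1, the kinase that primes β-catenin for breakdown, averaged -1.35 with gp120 and 0.07 in control, a difference of -1.42 (SE 0.63), and -0.99 (SE 0.32) with the letters as a block. The adjusted p of each of these genes was 0.999 in limma.

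The replicate letters are a comparison that did not choose the genes. They are tied to the slide: all letter A arrays lay in row 1 and all letter C arrays in row 2, and only letter B was in both. With the group in the fit, limma's F-test called 1917 of 12230 genes between letters at an adjusted p of 0.05, or 15.7%. Of the 8 tested genes 1 passed, WNT2B, whose signal averaged -3.49 on the letter B arrays, -3.42 on the letter C arrays and -5.14 on the letter A arrays. The fitted difference was 1.65 (SE 0.30) for B minus A and 1.20 (SE 0.35) for C minus A, with an adjusted p of 0.0322 in limma. In each group the letter A array was the lowest for WNT2B. The call was lost without control A or control B (adjusted p = 0.109 in limma for each), without TAT A (0.107), without gp120 A (0.104) and without gp120 B (0.0621), and it held without TAT B (0.0363), TAT C (0.0330) or gp120 C (0.0295). It was also lost with scan as a block (0.104), with slide row as a block (0.230), in the deposited table (0.0704) and with no filter on dim probes (0.0700), and after the normexp correction, where the differences were 0.10 and 0.11.

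SFRP4 and SFRP1 narrowly missed the threshold and pointed in opposite directions. SFRP4 averaged 0.42 in letter B, 1.50 in letter C and -0.01 in letter A, with a C minus A difference of 1.44 (SE 0.30) and an adjusted p of 0.0526 in limma. SFRP1 averaged -3.34 in letter B, -2.53 in letter C and -1.74 in letter A, with a B minus A difference of -1.60 (SE 0.35) and an adjusted p of 0.0560 in limma. Both passed after the normexp correction and among probes well above background on all 8 arrays, in which case WNT2B was not tested. SFRP4 also passed with the array median subtracted in place of the 75th percentile and without gp120 B. In the other alternatives neither passed, with an adjusted p in limma of up to 0.284 for SFRP4 (slide row as a block) and 0.549 for SFRP1 (the deposited table, where its differences were -0.56 and 0.04). The adjusted p in limma was 0.0976 for FZD1, 0.222 for FZD7, 0.387 for LRP6, 0.481 for LRP5 and 0.784 for DKK3. LRP5 had 0.05 (SE 0.16) for B minus A and -0.25 (SE 0.19) for C minus A, and DKK3 -0.13 (SE 0.21) and 0.06 (SE 0.24).

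AXIN2 could be set between letters only by its detection and by the readings of a dim probe. Its brighter probe was well above background on 3 of 3 letter A arrays, 1 of 3 letter B arrays and 0 of 2 letter C arrays. It averaged -5.02 in letter C and -4.01 in letter A, so letter A read 2.01-fold higher. Counting the letter C arrays at their background where that was higher left their mean at -5.02. The fold is therefore a plain difference of means and not a bound, and letter C has no control array. With no filter on dim probes the adjusted p in limma was 0.0921, among 17267 genes of which 5.8% were called.

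Over the wider list, 14 of the 66 tested genes were called between letters, or 21.2%, beside the 15.7% of all genes. In 9 of them both B and C lay below A, in 4 both lay above A, and FZD9 had B above and C below. The filter goes by group, so list genes detected in some letters only can be missing from this test. SFRP2 read -7.1, -7.7 and -7.39 on TAT A, gp120 A and control A, and 1.35 and 1.39 on TAT C and gp120 C. RSPO3 went the other way, with -1.16, -3.35 and -2.08 on the same letter A arrays and -5.3 and -6.62 on the letter C arrays. Neither was tested. The target gene CCND1, which encodes cyclin D1, read 2.83 and 2.85 on TAT B and gp120 B, 3.03 and 2.79 on TAT C and gp120 C, and 4.29 and 3.99 on TAT A and gp120 A; the controls read 2.54 in B and 4.17 in A. Every letter A array lay above all letter B and letter C arrays, which overlap each other, with differences of -1.41 (SE 0.16) for B minus A and -1.29 (SE 0.19) for C minus A and an adjusted p of 0.00792 in limma. DKK1, the secreted LRP5 and LRP6 antagonist, averaged -1.95 in B, -1.92 in C and -0.20 in A. TCF7, which encodes the transcription factor TCF1, averaged -2.74 in B, -2.66 in C and -4.39 in A. Both had an adjusted p of 0.00844 in limma.

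The other called genes that are named by smallest p come from several roles. CELSR3 and VANGL1, of the planar polarity arm, were lower in B and C, with C minus A differences of -1.56 (SE 0.21) and -2.20 (SE 0.39). TSPAN12 had -0.75 (SE 0.26) for B minus A and -2.05 (SE 0.31) for C minus A. RSPO4, another R-spondin gene, had -0.84 (SE 0.16) and -1.08 (SE 0.19). The receptor gene FZD2 was higher, with 1.55 (SE 0.25) and 1.05 (SE 0.29). CCND1, DKK1 and TCF7 kept the call without any 1 array, CELSR3 in 6 of these 8 fits, TSPAN12 in 4, and RSPO4, FZD2 and VANGL1 in 2. With slide row as a block 0 list genes were called, and with scan as a block 4. The CCND1 differences ran from -1.63 to -1.30 for B minus A and from -1.56 to -1.20 for C minus A over 17 alternatives, and slide row as a block took its adjusted p in limma to 0.0931.

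**Figure D4:**
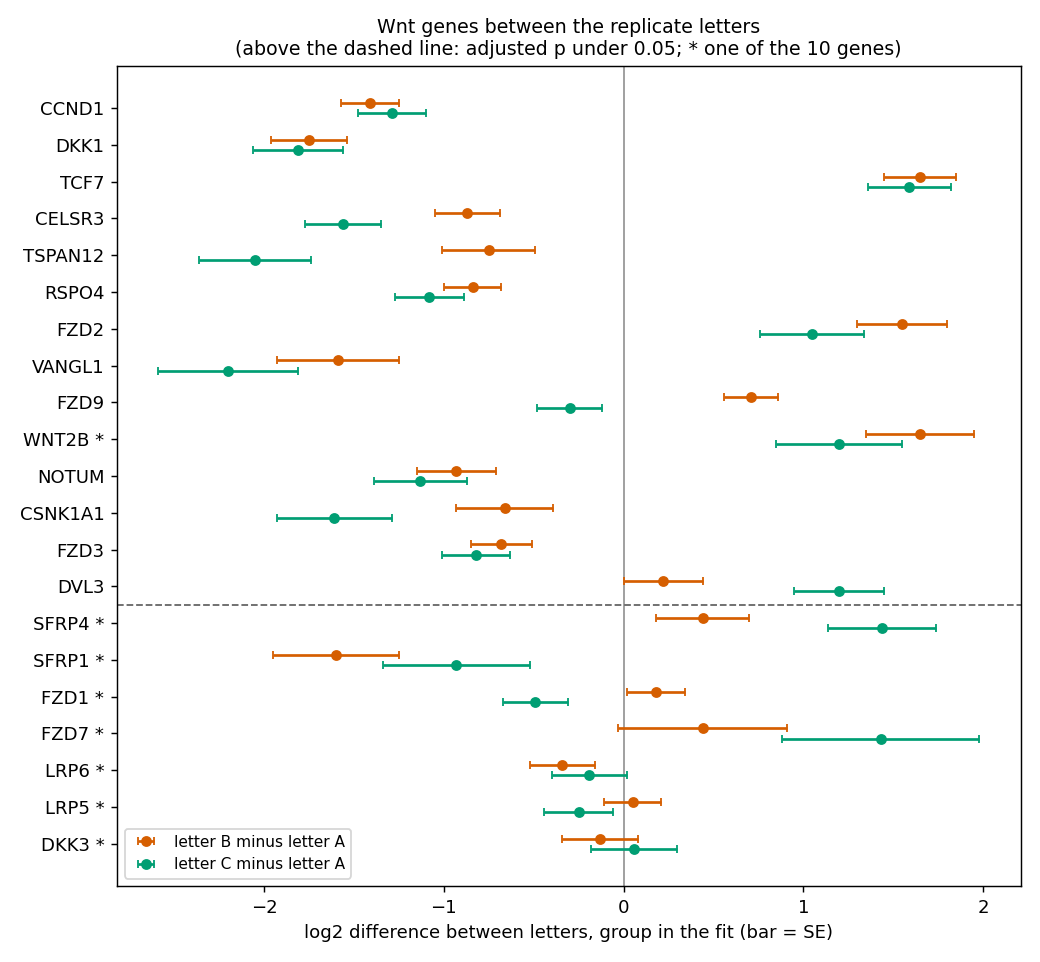
Log2 difference between letters (x axis, group in the fit, bars are SE) for the 14 Wnt list genes called between letters, above the dashed line, and for the other 7 tested genes of the 10, below it (y axis). Orange is letter B minus letter A and green is letter C minus letter A. CCND1 and DKK1 lie left of 0 for both, TCF7 and WNT2B right of 0 for both, and LRP5 and DKK3 lie near 0.

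The pattern over arrays also varied among the 10 genes. The range over the 8 arrays was 3.82 for WNT2B, 2.99 for SFRP1, 2.40 for FZD7 and 2.34 for SFRP4, against 1.15 for LRP6, 1.02 for FZD1, 0.84 for DKK3 and 0.74 for LRP5. WNT2B and SFRP1 had a Pearson r of -0.53 over the 8 arrays, SFRP4 and DKK3 of 0.64, and LRP5 and DKK3 of 0.64. The 3 genes most like WNT2B were IDH1 (r = 0.961), NAT10 (0.935) and POLE2 (0.935). Those most like SFRP1 were PSKH1 (0.952), FAP (0.944) and TMEM242 (0.942), FAP being a fibroblast marker of the list above. Those most like FZD7 were SARS2 (0.977), NR2F1 (0.975) and TTLL12 (0.971). These values are descriptions over 8 arrays that share 1 slide and 3 letters, each the highest among all genes tested.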

How the data were processed

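Cy3-labelled RNA was read on 8 one-colour arrays of an Agilent bovine design. Intensity values in the deposited scanner files came, per the file headers, from Agilent Feature Extraction 11.5.1.1 (protocol GE1_1105_Oct12) and are background-subtracted but unscaled between arrays. A value table, also deposited, gives log2 values by gene name; its column medians were -3.26, -3.21 and -3.25 (TAT A to C), -3.25, -3.18 and -3.33 (gp120 A to C) and -3.20 and -3.30 (control A and B). Once shifted, 97.8% to 98.0% of its single-probe values matched the scanner values to 0.02 for gp120 B and C, and 8.5% to 15.2% for the others. Scale and direction follow from this and no centring per gene was found, but how those 6 columns were made stays unknown, so this table was used only among the alternatives.

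Processed signals were averaged over repeated spots of a probe, without control and outlier spots (4 to 37 per array; 0 saturated), log2 transformed, and the array's 75th percentile subtracted. Of 51282 probes 31546 were kept (well above background throughout 1 or more groups, with no missing value). Gene names came from the bovine RefSeq table, through the accession for 29887 probes, the symbol for 5523 and a synonym for 166; 554 kept the file's name, and 15152 stayed unnamed and entered the fit but not the adjustment. The brightest kept probe stood for each gene. The comparisons used limma (version 3.58.1, R 4.3.3; lmFit, eBayes, all arrays, no block, two-sided, Benjamini-Hochberg over 12230 genes, threshold 0.05), and for letters its F-test with the group in the fit. Python 3.11.15 made the tables. The fits were tested on simulated data. The number of arrays limits the precision.

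Each array's deviation from its group mean was correlated with those of the other groups' arrays: r was 0.373 to 0.74 for the same letter (7 pairs) and -0.65 to 0.415 otherwise (14 pairs). Deviations cancel out within each group, which lowers r between letters, and those of the 2 controls mirror each other. Control B had r of 0.402 with TAT B and 0.373 with gp120 B, against 0.415 with TAT C and 0.388 with gp120 C. For control B the check therefore cannot decide the pairing. Arrays were paired by the letters in their titles.

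The 10 genes and all lists were chosen with earlier results of these data known. Named are the 10 genes with every probe, and up to 8 list genes called between letters. Also named are the 3 list genes with the smallest unadjusted p in each direction for each protein against control. So are the 3 genes most correlated with each of the 3 most variable genes. NDP, WNT10B, FZD9, SFRP2 and RSPO3 were named after their values were seen. Alternatives were the letters as a block, normexp background correction, 2 other normalizations, 2 other filters, the median over probes, slide row or scan as a block, the deposited table, all kept probes, and each array left out.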

Additional observations from a re-analysis of the deposited data

How the results depend on the processing

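With the letters as a paired block, 0 genes passed in each of the 3 protein comparisons, as without it, and the block changed no other call. In the table that the authors deposited, 4 genes passed for TAT minus control, 3 for gp120 minus control and 15 for TAT minus gp120, and without control A 1 passed for each protein against control (range 0 to 1 over the arrays left out); the cause was not tested. In the other alternatives the count was 0. The letter comparison moved more. For all genes, the Wnt list and the 10 genes it called 1002, 8 and 0 with no filter on dim probes, 97, 0 and 0 with slide row as a block, 729, 4 and 0 with scan as a block, and 584, 6 and 0 in the deposited table. Of the 10 genes it called 3 after normexp correction (FZD1, SFRP1 and SFRP4), 2 with the array median subtracted and 2 among probes well above background on all 8 arrays. With 1 array left out the counts were 511 to 1286 for all genes, 4 to 10 for the Wnt list and 0 to 1 for the 10 genes. Each left-out array, row and scan block also takes degrees of freedom from a fit that has few. Scan as a block uses gp120 A alone for gp120, so its letter counts equal those without gp120 A. Of the single-gene differences and medians, 28 moved by more than the spread within groups and 536 did not. Blocks of letters with scan or row, letters A and B alone, and the Wnt list count between letters were added after the data were seen.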
